A study of Mus musculus with 9 samples.

Results

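Ucp2, Slc25a27 and Slc25a14 encode the uncoupling proteins UCP2, UCP4 and UCP5, and were taken by symbol through the Ensembl identifiers of the count files. They are 3 of the 26602 genes with a count in the series, and all 3 passed the filter on low counts. RNA was measured in midbrain tissue that included the substantia nigra, from mice 3 to 4 months of age that received no treatment. The 4 DJ-1+/+ mice were compared with 5 DJ-1-/- mice, 1 library per animal. The DJ-1-/- mice were homozygous for a targeted allele of Park7, the gene that encodes DJ-1, on a line backcrossed for 7 generations to C57BL/6, and both genotypes came from heterozygous parents and shared cages. Libraries were 3′ mRNA-seq libraries (QuantSeq), which take 1 fragment close to the poly(A) tail of each molecule, so longer transcripts gain no extra counts. Levels are therefore given as counts per 1000000 of the library total (cpm) and are not divided by length.

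Uncoupling proteins belong to the SLC25 family, carriers that sit in the inner mitochondrial membrane and move metabolites or ions across it. UCP1 of brown fat lets protons leak back into the matrix and turns the proton gradient into heat. UCP2 is found in many tissues, including immune cells and microglia, while UCP4 and UCP5 are known mainly from neurons, where mild uncoupling is thought to limit the formation of superoxide by the respiratory chain. DJ-1 is a redox-sensitive protein whose loss causes a recessive form of Parkinson's disease, and earlier work on dopaminergic neurons of the substantia nigra linked it to UCP4 and UCP5. The comparison here asks what the transcripts of these genes did in whole midbrain tissue without DJ-1. In such bulk tissue, fewer cells of a type and less RNA per cell cannot be told apart.

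As a check of the labels, Park7 averaged 135 cpm in the DJ-1+/+ and 20.4 cpm in the DJ-1-/- libraries, with no overlap between the genotypes. Library totals ran from 841974 to 886085 counts in DJ-1+/+ and from 967751 to 1098125 counts in DJ-1-/- mice, so that every DJ-1-/- library was deeper and depth cannot be told apart from genotype. Across libraries, 3 counts corresponded to between 2.73 and 3.56 cpm, which covers counting error only. The highest count of any gene in a library was between 1040 and 1359, so the upper range of the counts was narrow. Neither its cause nor its effect on levels, ranks, shares and fold changes was tested. Xist was above 10 counts in 6 libraries and the Y-linked gene Ddx3y in the other 3, which were replicates 1 and 4 of the DJ-1+/+ mice and replicate 5 of the DJ-1-/- mice. DJ-1+/+ replicate 1 had 916 cpm of summed cerebellar neuron markers against 108 to 222 cpm in the other libraries. DJ-1+/+ replicates 1 and 4 had 410 and 985 cpm of choroid plexus markers against 166 to 278 cpm in the other libraries.

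The sequence where each transcript ends in the annotation is shown because the libraries read from that end. Each is 30 bases long and written 5′ to 3′ on the strand of the gene, and capitals mark ATTAAA, a common variant of the polyadenylation signal AATAAA. They were read from the principal transcripts of GENCODE M21 (GRCm38), for Ucp2 at chr7:100501991-100502020 (plus strand) and at chr7:100499600-100499629, for Slc25a27 at chr17:43641891-43641920 (minus strand) and for Slc25a14 at chrX:48662265-48662294 (plus strand).
Ucp2, GENCODE end: tgtgcactgcaccaccaagtttaggcctct
Ucp2, RefSeq end: ttcacccataaagcaagctcaatgttggtg
Slc25a27, GENCODE end: tacatgcaaacacaactattgaaaaaaaaa
Slc25a14, GENCODE end: tggttctcATTAAAgtatttattggttgaa

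Of these windows, that of Slc25a14 held ATTAAA, starting 22 bases before the end, and the others held neither ATTAAA nor AATAAA on the strand of the transcript. Among 58793 annotated ends of protein-coding transcripts, 44.1% held 1 of the 2 hexamers in a window of this length. Those ends were not limited to transcripts annotated as complete, as the principal transcripts were, so the share is not a like background. For Slc25a14 the ends in GENCODE and RefSeq were 4 bases apart. For Ucp2 the RefSeq gene ended 2391 bases before the GENCODE gene. For Slc25a27 the RefSeq gene ran 4152 bases past the GENCODE end, so a fragment from there would lie outside the GENCODE gene. Which annotation was used for counting is not given in the sources used here, and the part of these ends in the counts was not tested.

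The 300 bases before each end were also searched for near-identical copies, since reads from a copy could be split or lost. No other gene matched the 300 bases before the RefSeq end of Ucp2, or those before the GENCODE ends of Slc25a27 and Slc25a14. The 300 bases before the GENCODE end of Ucp2 matched 14 other genes with at least 90% identity over at least 50 bases. Without these limits, the search returned a match in 3833 other genes. The coding sequences themselves were well apart. Slc25a14 was closest to Slc25a30 (71.1% identical coding bases), Ucp2 was closest to Ucp3 (74.8%), and Slc25a27 shared 47.8% to 50% with the other 5 uncoupling proteins.

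Slc25a14 (ENSMUSG00000031105, chromosome X, 48623413 to 48662294, plus strand) was the most abundant of the 3 transcripts. It had 87.9, 107, 116 and 99.3 cpm in DJ-1+/+ replicates 1 to 4, and 109, 103, 103, 110 and 114 cpm in DJ-1-/- replicates 1 to 5. The DJ-1-/- values lay within the range of the DJ-1+/+ values, in which replicate 1 was lowest and replicate 3 highest. The means were 103 ± 12.03 cpm (SD, n = 4) and 108 ± 4.71 cpm (SD, n = 5), a difference of 5.15 cpm (exact permutation test, two-sided p = 0.444, where 0.0159 is the smallest p that 4 mice against 5 allow). The log2 fold change, DJ-1-/- over DJ-1+/+ in edgeR's fit, was 0.07 (SE 0.09, 95% interval -0.12 to 0.26). In fold terms the interval ran from 0.92 to 1.20. That SE is slightly below the 0.10 that counting error alone gives for these counts, and DESeq2 gave a wider interval, from 0.88 to 1.24 fold.

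Slc25a27 (ENSMUSG00000023912, chromosome 17, 43641891 to 43667214, minus strand) was at intermediate levels. It had 71.3, 63.6, 65.2 and 73.4 cpm in DJ-1+/+ mice and 66.1, 67.4, 53.6, 78.5 and 77.0 cpm in DJ-1-/- mice. The DJ-1-/- values spread on both sides of the DJ-1+/+ values, with replicate 3 lowest and replicates 4 and 5 highest of all 9 libraries. The means were 68.4 ± 4.69 cpm (SD, n = 4) and 68.5 ± 10.01 cpm (SD, n = 5), a difference of 0.17 cpm (exact permutation test, two-sided p = 0.984). The log2 fold change was 0.0045 (SE 0.13, 95% interval -0.27 to 0.28). In fold terms the interval ran from 0.83 to 1.21, and that of DESeq2 from 0.80 to 1.24.

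Ucp2 (ENSMUSG00000033685, chromosome 7, 100493337 to 100502020, plus strand) was the least abundant. It had 33.3, 35.2, 20.9 and 36.1 cpm in DJ-1+/+ mice and 34.0, 34.6, 38.2, 33.1 and 28.3 cpm in DJ-1-/- mice. DJ-1+/+ replicate 3, with 18 counts, stood below the other 8 libraries, and the genotypes overlapped. The means were 31.4 ± 7.06 cpm (SD, n = 4) and 33.6 ± 3.57 cpm (SD, n = 5), a difference of 2.24 cpm (exact permutation test, two-sided p = 0.619). The log2 fold change was 0.10 (SE 0.19, 95% interval -0.30 to 0.50), or 0.81 to 1.41 fold, and DESeq2 gave 0.77 to 1.47 fold. Without DJ-1+/+ replicate 3 the log2 fold change was -0.057.

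**Figure D1:**
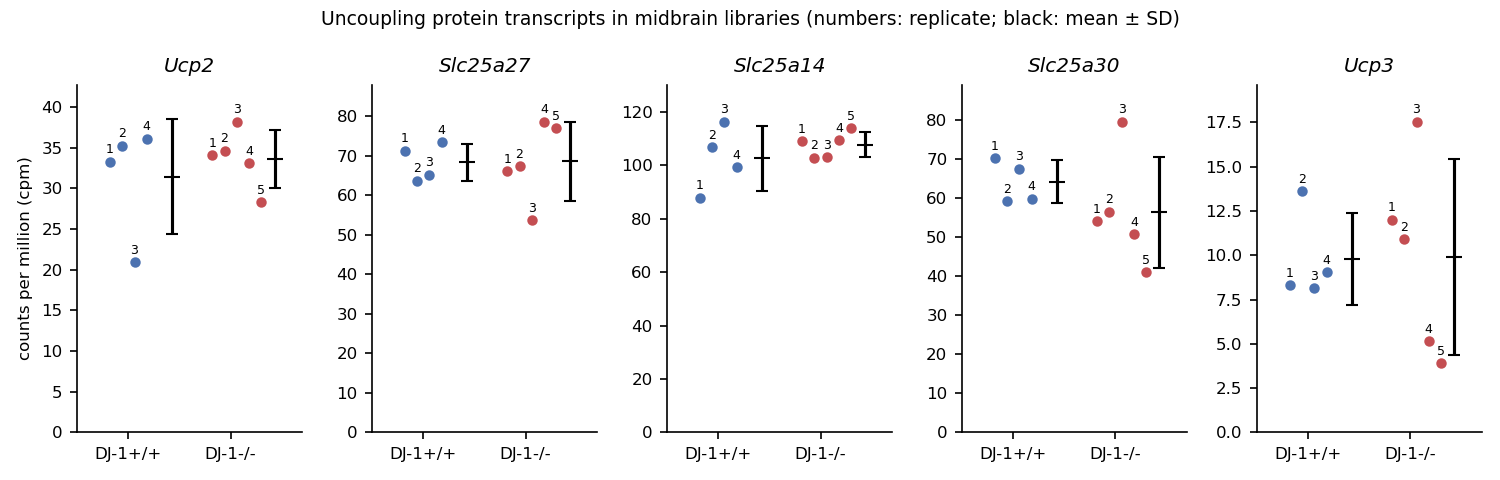
Level of Ucp2, Slc25a27, Slc25a14, Slc25a30 and Ucp3 in cpm (y axes, each from 0) in every library, by genotype (x axis). Numbers beside points are replicate numbers and black bars are the mean ± SD of 4 DJ-1+/+ and 5 DJ-1-/- mice. The genotypes overlapped in each panel, and Ucp2 was lowest in DJ-1+/+ replicate 3 at 20.9 cpm.

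Adjusted over all 18127 genes tested (Benjamini-Hochberg), the p of each of the 3 genes was 0.99997 in the quasi-likelihood test of edgeR, in which 1 gene passed 0.05 (0.00552%). Before adjustment 0 of the 3 genes reached 0.05, where 513 of all genes did (2.83%). DESeq2 and limma-voom gave no unadjusted p under 0.05 for the 3 genes either. Over the 20 other ways of processing that were run, the smallest unadjusted p was 0.237 for Ucp2, 0.534 for Slc25a27 and 0.228 for Slc25a14. No overlap between the genotypes was seen in 0 of 3 genes, against 1.25% of all genes tested.

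**Figure D2:**
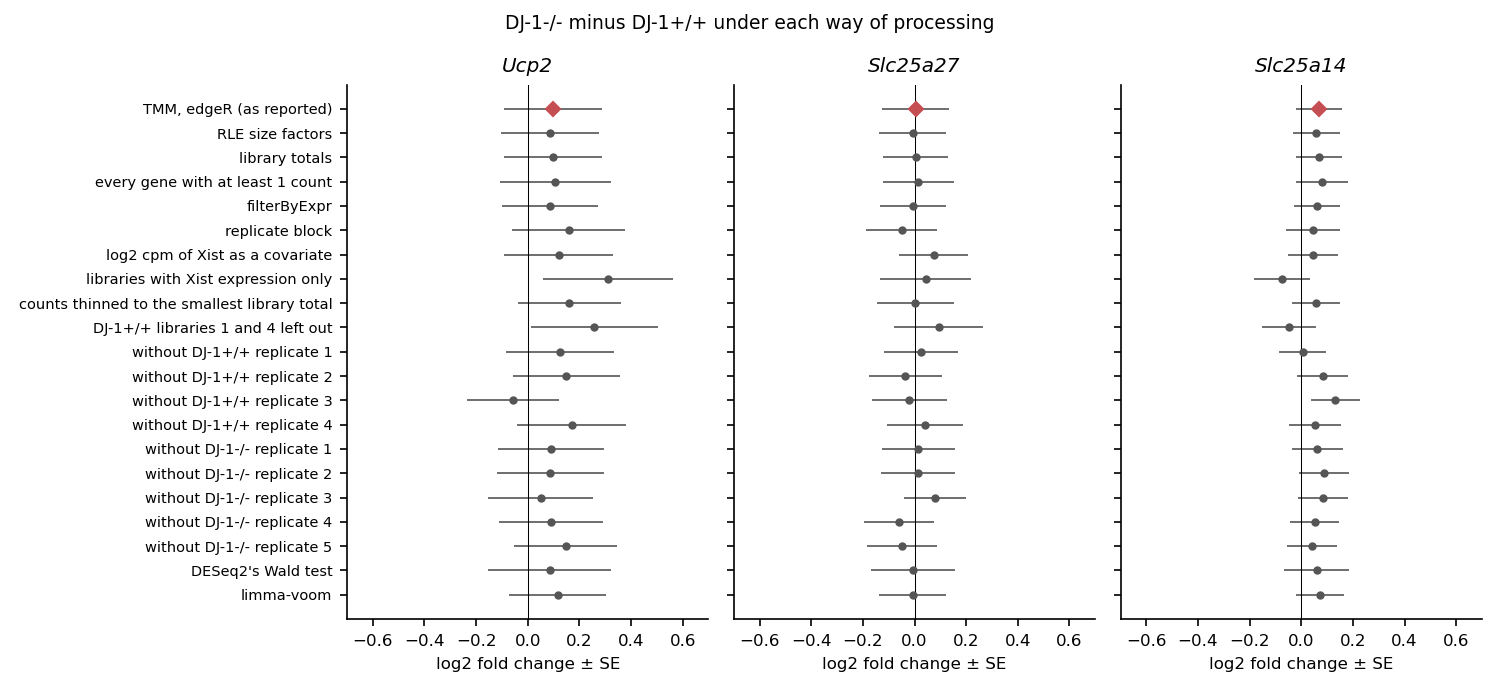
Log2 fold change (DJ-1-/- minus DJ-1+/+, x axes) of Ucp2, Slc25a27 and Slc25a14 under each way of processing (rows), with lines of ± 1 SE. The red diamond is the value reported. The values for Slc25a27 lay on both sides of 0, and those of Slc25a14 were below 0 in libraries with Xist (-0.074) and when DJ-1+/+ replicates 1 and 4 were left out (-0.048). Both of these fits leave out DJ-1+/+ replicates 1 and 4.

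The order of the levels, Slc25a14 above Slc25a27 above Ucp2, held in all 9 libraries. The lowest Slc25a14 value (87.9 cpm) was above the highest Slc25a27 value (78.5 cpm), and the lowest Slc25a27 value (53.6 cpm) was above the highest Ucp2 value (38.2 cpm). Of the counts of the 3 genes together, Slc25a14 made up 50.7 ± 5.24% (SD, n = 4) in DJ-1+/+ and 51.4 ± 1.42% (SD, n = 5) in DJ-1-/- mice. Slc25a27 made up 33.8 ± 2.77% and 32.5 ± 3.23%, and Ucp2 made up 15.5 ± 3.45% and 16.1 ± 2.47%. The balance between the 3 genes thus differed by less than the spread between mice of 1 genotype.

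**Figure D3:**
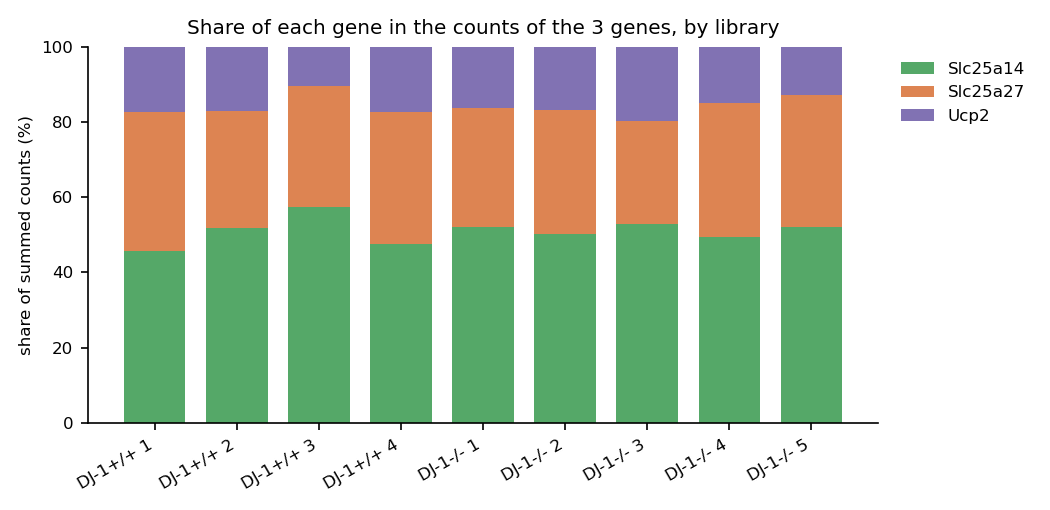
Share (%) of Slc25a14, Slc25a27 and Ucp2 in their summed counts (y axis) in each of the 9 libraries (x axis). Slc25a14 ran from 45.7% in DJ-1+/+ replicate 1 to 57.5% in DJ-1+/+ replicate 3, and the summed counts were between 162 and 225 per library.

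Much of the spread between mice was of the size that counting alone would give. For Slc25a14, the chi-square statistic of the counts against the library totals was 1.20 per degree of freedom in DJ-1+/+ and 0.21 in DJ-1-/- mice, where counting error alone gives about 1. It was 0.28 and 1.43 for Slc25a27, and 1.37 and 0.38 for Ucp2. The 3 genes did not vary closely together over the 9 libraries. Pearson's r of log2 cpm was -0.52 between Ucp2 and Slc25a14, -0.16 between Ucp2 and Slc25a27, and 0.12 between Slc25a27 and Slc25a14, as a description of libraries that share depth and dissection.

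The uncoupling proteins outside the 3 were measured in the same libraries. Slc25a30, the kidney mitochondrial carrier that is most like Slc25a14 in sequence, had 70.1, 59.1, 67.5 and 59.8 cpm in DJ-1+/+ mice and 54.1, 56.5, 79.4, 50.6 and 40.9 cpm in DJ-1-/- mice. Apart from replicate 3, which was the highest of all 9, the DJ-1-/- values were below the DJ-1+/+ values. The log2 fold change was -0.19 (SE 0.16, edgeR p = 0.262, exact permutation p = 0.381). Without replicate 3 of the DJ-1-/- mice it was -0.34 (SE 0.14), with an adjusted p from edgeR of 0.99995. With any other library left out it was between -0.23 and -0.10, so the lower value rests on leaving out the highest library. The DJ-1-/- counts of Slc25a30 spread more than counting alone would give, with a chi-square of 3.55 per degree of freedom.

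Ucp3, the uncoupling protein of skeletal muscle, had between 4 and 17 counts per library. The mean was 9.78 ± 2.60 cpm for DJ-1+/+ and 9.91 ± 5.53 cpm for DJ-1-/- (SD, n = 4 and 5), a log2 fold change of 0.01 (SE 0.41). Ucp1 of brown fat had 0 of 8528004 counts, which allows a level of up to 0.35 cpm over all libraries together.

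Among the 50 SLC25 carriers with a count, the 3 genes included, Slc25a14 ranked 13 and Slc25a27 ranked 22 by mean cpm over the 9 libraries. The neighbours in that order given here had ranges over the 9 libraries that overlapped theirs. Whether the means differed was not tested. Slc25a14 (105 ± 8.53 cpm, SD, n = 9) stood between Slc25a39 at 118 ± 9.78 cpm and Slc25a36 at 99.8 ± 8.91 cpm. Slc25a27 (68.4 ± 7.64 cpm, SD, n = 9) stood above Slc25a17 at 61.9 ± 10.97 cpm.

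Of 52 other SLC25 names listed, 47 had a count and 45 were tested. With edgeR, 1 of the 45 reached an unadjusted p of 0.05 (2.22%, against 2.83% of all genes). Their median log2 fold change was 0.02, beside 0.0079 over all genes tested, with 29 above 0 and 16 below. The 1 gene was Slc25a15, the ornithine carrier of the urea cycle, at 41.6 ± 6.98 cpm for DJ-1+/+ and 52.01 ± 3.22 cpm for DJ-1-/- (SD, n = 4 and 5), a log2 fold change of 0.32 (SE 0.15, edgeR unadjusted p = 0.0458, adjusted p = 0.99997). Its genotypes overlapped (exact permutation p = 0.0476), and DESeq2 gave an unadjusted p of 0.109. With 1 library left out, the log2 fold change was lowest without DJ-1+/+ replicate 2, at 0.22 (SE 0.15, edgeR unadjusted p = 0.171, adjusted p = 0.997). It was highest without DJ-1+/+ replicate 1, at 0.42 (SE 0.16, edgeR unadjusted p = 0.0172, adjusted p = 0.999). Next by edgeR p were Slc25a47, a carrier known from liver, with 24 counts in the DJ-1+/+ and 12 in the DJ-1-/- mice in all (log2 fold change -1.49, SE 0.71, edgeR p = 0.0518, exact permutation p = 0.159), and Slc25a12, the aspartate-glutamate carrier of brain (0.13, SE 0.08, edgeR p = 0.106, exact permutation p = 0.0794).

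The ADP/ATP carriers, which exchange ATP for ADP and can also leak protons, were measured with the carriers. The highest, Slc25a4, was 388 ± 30.3 cpm for DJ-1+/+ and 366 ± 18.6 cpm for DJ-1-/- (SD, n = 4 and 5), or -0.08 in log2 fold change (SE 0.07, edgeR p = 0.258, exact permutation p = 0.222). Slc25a5 had a log2 fold change of -0.10 (SE 0.13, edgeR p = 0.453, exact permutation p = 0.540) and Slc25a31, known from testis, had 23 counts in all. With edgeR, 0 of these 3 reached an unadjusted p of 0.05, where 2.83% of all genes did.

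**Figure D4:**
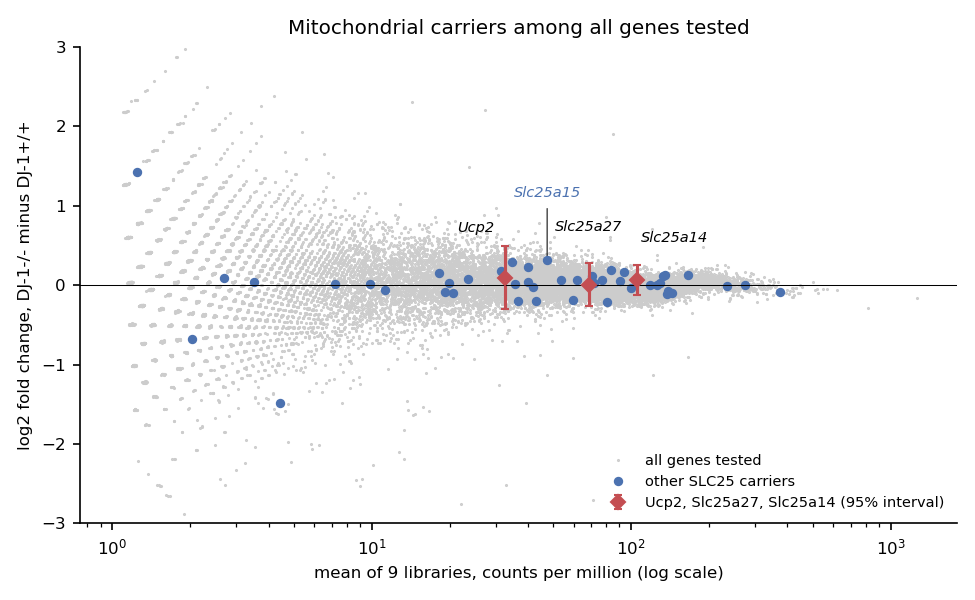
Log2 fold change (DJ-1-/- minus DJ-1+/+, y axis) against mean level in cpm (x axis, log scale) of all genes tested (grey), other SLC25 carriers (blue) and Ucp2, Slc25a27 and Slc25a14 (red, with 95% intervals). The 3 genes lay near 0, within the band of genes of like level. The y axis stops at 3 on both sides, and 26 genes, none of them a carrier, lie beyond it.

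Genes that act on the superoxide and peroxide that uncoupling is thought to limit were also counted. Of 11 tested, 0 reached an unadjusted p of 0.05 with edgeR, where 2.83% of all genes did, and the median log2 fold change was -0.03. The smallest edgeR p belonged to Sod2, the superoxide dismutase of the mitochondrial matrix, at 138 ± 9.88 cpm for DJ-1+/+ and 151 ± 9.30 cpm for DJ-1-/- (SD, n = 4 and 5; log2 fold change 0.12, SE 0.08, edgeR p = 0.155, exact permutation p = 0.111). Txnrd2, the mitochondrial thioredoxin reductase, followed at -0.27 (SE 0.19, edgeR p = 0.171, exact permutation p = 0.159), and Gpx1, which reduces peroxides, at -0.06 (SE 0.08, edgeR p = 0.465, exact permutation p = 0.508).

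Transcriptional regulators of mitochondrial genes were counted in the same way. Of 17 tested, 0 reached an unadjusted p of 0.05 with edgeR, where 2.83% of all genes did, and the median log2 fold change was 0.02. The smallest edgeR p values were those of the fatty acid sensing receptors Ppara (log2 fold change 0.38, SE 0.30, edgeR p = 0.219, exact permutation p = 0.238) and Ppard (0.16, SE 0.16, edgeR p = 0.335, exact permutation p = 0.286) and of the estrogen-related receptor Esrra (0.16, SE 0.16, edgeR p = 0.343, exact permutation p = 0.524).

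Ucp2 is known from microglia, and Slc25a27 and Slc25a14 from neurons, so markers of these cells were set beside them. All 13 microglia markers and all 8 general neuron markers had counts. The summed microglia markers were 850 to 877 cpm in DJ-1+/+ and 815 to 948 cpm in DJ-1-/- mice, and the general neuron markers 2254 to 2391 and 2246 to 2377 cpm. Both sums thus overlapped between the genotypes. Over the 9 libraries, Spearman's rho of Ucp2 was 0.70 with the microglia sum (Pearson's r = 0.42) and -0.68 with the general neuron sum (r = -0.60). For Slc25a27 rho was -0.57 (r = -0.64) and 0.20 (r = 0.22) in that order. For Slc25a14 it was -0.52 (r = -0.28) and 0.58 (r = 0.35). The libraries share depth and dissection, and these values are a description.

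The 14 dopaminergic neuron markers, all with counts, summed to 779 to 1410 cpm in DJ-1+/+ and 1033 to 1453 cpm in DJ-1-/- mice. With edgeR, 13 of the 14 had a log2 fold change above 0 (51.9% of all genes did), 5 reached an unadjusted p of 0.05 (35.7%, against 2.83% of all genes) and 0 an adjusted p of 0.05. In the same fit 8 of 8 cerebellar neuron markers were below 0, 6 of them with an unadjusted p under 0.05, and so were 13 of 13 choroid plexus markers, 7 of them with an unadjusted p under 0.05. Their median log2 fold changes were -2.34 and -1.63. Without DJ-1+/+ replicates 1 and 4, an alternative chosen after seeing the data, no marker of these 3 lists reached an unadjusted p of 0.05 with edgeR. In that fit 467 of 17571 genes did, and it holds only DJ-1+/+ replicates 2 and 3, so such a p is harder to reach. Then 13 of 14 dopaminergic markers remained above 0, while 4 of 6 cerebellar and 4 of 9 choroid plexus markers still tested were below 0. The median log2 fold change was then 0.16 for the dopaminergic markers, against 0.27 with all libraries. It was -0.05 for the cerebellar and 0.35 for the choroid plexus markers. DJ-1-/- replicate 4 had both the highest dopaminergic sum (1453 cpm) and the highest Slc25a27 value (78.5 cpm). The lowest Slc25a27 value (53.6 cpm, DJ-1-/- replicate 3) came with a sum of 1264 cpm, and the lowest sum (779 cpm, DJ-1+/+ replicate 4) with a Slc25a27 value of 73.4 cpm. The part of the dopaminergic markers in the levels of the 3 genes was not tested.

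The lowest Slc25a14 value, 87.9 cpm, was that of DJ-1+/+ replicate 1, the library with the high cerebellar sum. Of the 10 marker sums, Slc25a14 had its lowest Pearson's r with the cerebellar sum (-0.88, Spearman's rho = -0.80). Next were the ependymal (-0.69, rho = -0.70) and choroid plexus sums (-0.64, rho = -0.87). Its highest r was 0.35, with the general neuron sum (rho = 0.58). The part of dissection in the Slc25a14 values was not tested. Without DJ-1+/+ replicates 1 and 4, the log2 fold change of Slc25a14 was -0.048 (SE 0.10), that of Slc25a27 was 0.09 (SE 0.17) and that of Ucp2 was 0.26 (SE 0.25). The edgeR adjusted p was 0.999 for each.

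**Figure D5:**
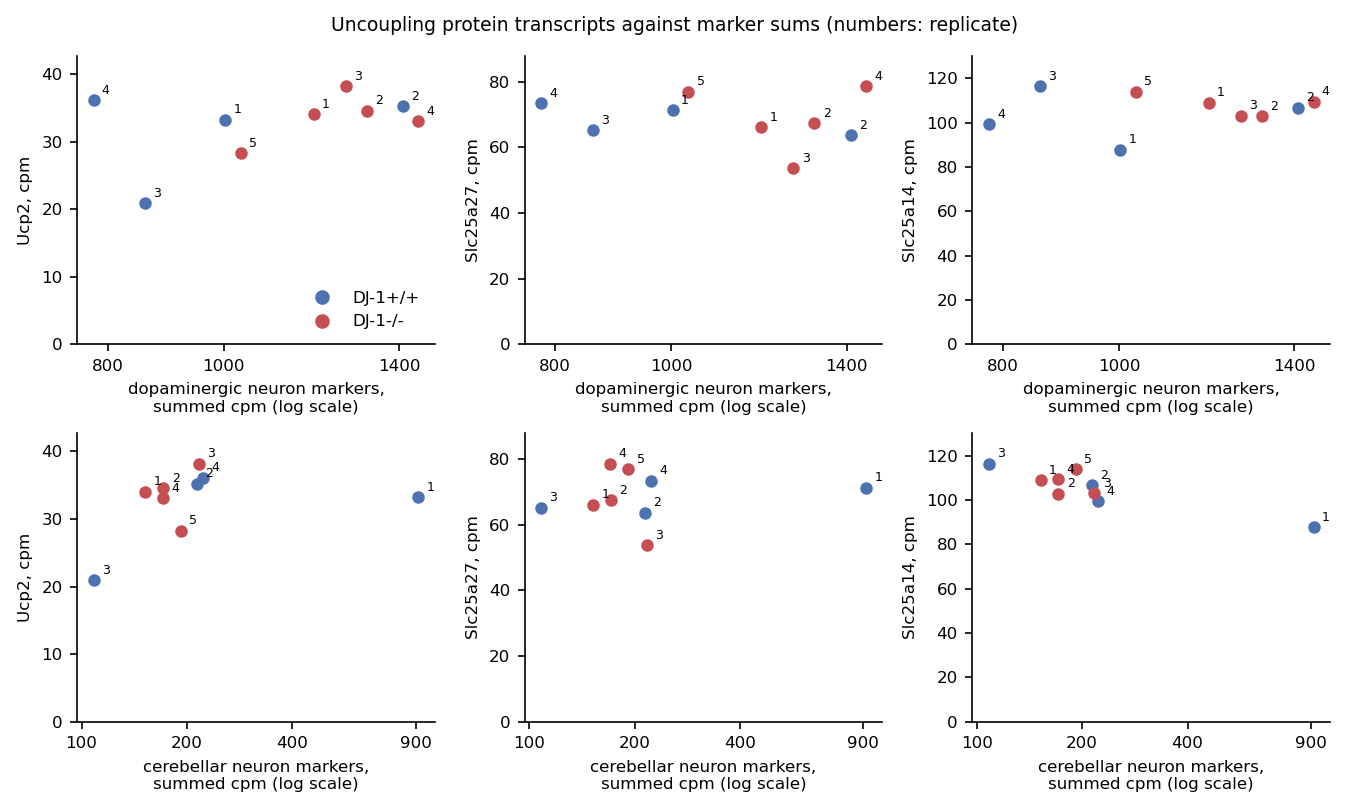
Level of Ucp2, Slc25a27 and Slc25a14 in cpm (y axes, from 0) against the summed level of dopaminergic neuron markers (upper row) and cerebellar neuron markers (lower row) in each library (x axes, log scale). Blue points are DJ-1+/+ and red points DJ-1-/- mice, numbered by replicate. DJ-1+/+ replicate 1 stands apart at 916 cpm of cerebellar markers and has the lowest Slc25a14 value. Over all 9 libraries, Spearman's rho between Slc25a14 and the cerebellar sum was -0.80.

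Slc25a14 lies on the X chromosome, and libraries with and without Xist were not evenly spread over the genotypes. In DJ-1+/+ mice, Slc25a14 was 107 and 116 cpm in the libraries with Xist and 87.9 and 99.3 cpm in those without. In DJ-1-/- mice it was 103 to 110 cpm in the 4 libraries with Xist and 114 cpm in the 1 without, so the order was not the same in both genotypes. The DJ-1+/+ libraries without Xist were replicates 1 and 4, those with the high choroid plexus sums. Xist and dissection thus cannot be told apart in that genotype, and a fit on libraries with Xist alone leaves out the same replicates. Among libraries with Xist alone, the log2 fold change of Slc25a14 was -0.074 (SE 0.11), the opposite sign to that over all libraries. In the same libraries that of Ucp2 was 0.31 (SE 0.25), with a cpm difference of 6.88, and that of Slc25a27 was 0.04 (SE 0.18).

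The genes next to the 3 were examined because reads without strand could be shared. The last 305 bases of Ucp2 overlap Dnajb13 on the opposite strand, which had 7 counts over all libraries against 279 for Ucp2. Within Slc25a14 lies the microRNA gene Gm27828, which had no counts. Slc25a27 overlaps no gene. Its neighbour Cyp39a1 starts 211 bases away on the opposite strand and had 61 counts, with a log2 fold change of -0.02 (SE 0.47).

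On the other side of Slc25a27, Tdrd6, a germ cell gene, had 39 counts in all. It was 6.04 ± 2.07 cpm for DJ-1+/+ and 3.55 ± 0.43 cpm for DJ-1-/- (SD, n = 4 and 5), without overlap, as in 1.25% of all genes tested. Its log2 fold change was -0.75 (SE 0.42, edgeR adjusted p = 0.99997). Zfp280c, below Slc25a14, was -0.10 (SE 0.18), and Ucp3 is the neighbour of Ucp2.

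By Pearson's r of log2 cpm over the 9 libraries, among 10769 genes with a mean of at least 20 counts, Slc25a27 was most like Rab10 (r = 0.97, Spearman's rho = 0.98), Vmp1 (0.93, rho = 0.90) and Tmem151b (0.93, rho = 0.97). All 4 were lowest in DJ-1-/- replicate 3 and highest in DJ-1-/- replicate 4, except that Vmp1 was highest in DJ-1+/+ replicate 1. Slc25a14 was most like Optn (r = 0.95, rho = 0.92), Cops2 (0.94, rho = 0.93) and Fastkd5 (0.93, rho = 0.93), each lowest in DJ-1+/+ replicate 1. Ucp2 was most like Coq8b (r = 0.97, rho = 0.75), Slc35e4 (0.96, rho = 0.70) and Gosr2 (0.95, rho = 0.75), each lowest in DJ-1+/+ replicate 3. For Ucp2 the ranks thus matched less closely than r. These genes were picked as the highest of a long list over libraries that share depth and dissection, and the values are a description.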

How the data were processed

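The authors deposited whole-number UMI counts per gene for each mouse, by Ensembl identifier, listing genes with at least 1 count. The submitters' processing notes name fastp 0.20.0, STAR 2.7.3a, featureCounts 2.0.0, UMI-tools 1.0.0 and GRCm38. The annotation and the use of strand are not given in the sources used here. The counts were joined by identifier, with absent genes set to 0, and 26576 of 26602 genes were named from GENCODE M21. The main test was edgeR 4.0.16 (glmQLFit, glmQLFTest, R 4.3.3) with TMM normalization and a model of genotype alone, on genes whose counts summed to at least 10, with Benjamini-Hochberg adjustment over all of them. SE is the log2 fold change divided by the square root of F. Single genes were compared as cpm by exact two-sided permutation tests over 126 splits (scipy 1.17.1). DESeq2 1.42.0, limma-voom (limma 3.58.1), other normalizations and filters, Xist as a covariate, thinned counts, the replicate block and each library left out were alternatives. Ends were searched with blastn 2.17.0, and coding sequences were aligned globally with biopython. Scripts were tested on simulated data.

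The 3 genes and all lists were chosen with earlier results of these data known. Named are the 3 genes, the other uncoupling proteins, Park7, Xist and Ddx3y, the 3 genes of smallest unadjusted p in each pathway list, the 3 genes most correlated with each of the 3, overlapping and nearest genes, and 3 carriers next in level, which were added after their values were seen. Within a genotype, pairs of libraries differed by a chi-square of 1.07 to 2.27 per degree of freedom, and none was counted as a copy.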

Additional observations from a re-analysis of the deposited data

Results flagged for a closer look

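In groups of 4 or 5 libraries, a value was singled out when its gap to the nearest other value, divided by the range of its group, was above Dixon's 95% critical value, which is higher for 4 libraries than for 5. This was examined in 69 groups of the named genes, of which chance would single out about 1 in 20, and 10 were. No value of Slc25a27 or Slc25a14 passed, nor did Ucp2 in DJ-1+/+ replicate 3, whose gap took up 0.81 of the range of 4 libraries, just under the limit. Ucp3 was 13.6 cpm (12 counts) in DJ-1+/+ replicate 2 against 8.14 to 9.03 cpm in the other DJ-1+/+ libraries. DJ-1-/- replicate 5 had 1.95 cpm of Xist and 148 cpm of Ddx3y, against 153 to 176 cpm and 0 to 4.00 cpm in the other DJ-1-/- libraries, and 131 cpm of Gpx1 against 148 to 155 cpm. Slc35e4, one of the genes most like Ucp2, was 23.3 cpm in DJ-1+/+ replicate 3 against 41.8 to 42.8 cpm, and Fastkd5 was 20.9 cpm in DJ-1-/- replicate 2 against 23.7 to 24.4 cpm. Cyp39a1 was 11.6 cpm in DJ-1+/+ replicate 3 against 5.64 to 5.94 cpm. The pseudogene Gm8463 beside Ucp2 was 1.14 cpm in DJ-1+/+ replicate 2 and 0.91 cpm in DJ-1-/- replicate 2, and Gpr119 beside Slc25a14 was 1.03 cpm in DJ-1-/- replicate 4, each from 1 count where the other libraries of the genotype had 0.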

How the results depend on the processing

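No alternative gave Ucp2, Slc25a27 or Slc25a14 an adjusted p under 0.05, and the smallest adjusted p was 0.904, but signs changed. The log2 fold change of Slc25a27 was -0.0060 with RLE size factors, -0.0045 with filterByExpr, -0.0061 with DESeq2 and -0.0069 with limma-voom, and its cpm difference was -0.28 on RLE-scaled sizes. That of Ucp2 was highest, at 0.31 (cpm difference 6.88), in libraries with Xist. That of Slc25a14 was -0.074 in libraries with Xist (cpm difference -5.41) and -0.048 without DJ-1+/+ replicates 1 and 4 (-3.84). Both of these fits leave out DJ-1+/+ replicates 1 and 4, so they are not separate evidence. With 1 library left out, log2 fold changes ran from -0.057 to 0.17 for Ucp2, -0.059 to 0.079 for Slc25a27 and 0.0050 to 0.13 for Slc25a14, and cpm differences from -1.24 to 3.82, -2.33 to 3.89 and 0.25 to 9.73. Ucp2 was below 0 only without DJ-1+/+ replicate 3, and Slc25a27 without DJ-1+/+ replicates 2 or 3 or DJ-1-/- replicates 4 or 5. Over all genes, 1 was called, against 36 with every gene of at least 1 count, 3 in libraries with Xist and 1 to 2 with a library left out. Unadjusted calls were 513, against 802 with every gene, 338 with filterByExpr, 235 with DESeq2 and 338 to 732 with a library left out. The causes were not tested.

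Replicate numbers are shared by the genotypes, but no source pairs mice of the same number. Their deviations correlated from -0.19 to 0.29 over 4 pairs, 1 of them above 0.1. With the replicate block, Slc25a27 was -0.049 and 8 genes were called. For the median log2 fold changes of the pathway lists only 11 alternatives were run, other normalizations and each library left out. The medians moved by less than the spread between libraries in each, but all except that of the ADP/ATP carriers changed sign in at least 1. Counting error limits the precision, most for Ucp2 at 18 to 38 counts per library.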
